A study of Saccharomyces cerevisiae with 10 samples.

Results

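The 7 vector control arrays of a yeast series of 10 arrays are described here, and no array of the other arm was used. The cells were Saccharomyces cerevisiae carrying the empty expression vector pRSGPD426, the plasmid into which the other arm of the series had αENaC, a subunit of the epithelial sodium channel, cloned with an HA tag behind the GPD promoter. All cultures were grown in selective medium at 26 degrees to mid log phase, RNA was taken with hot phenol and a column clean-up, and biotin-labelled cRNA was hybridised to Affymetrix arrays. The labels name no strain and no growth or scan date, so "earlier" and "later" stand only for the number in the array's title: 3 controls numbered 3, 4 and 5 are the earlier group (controls 1 to 3), and 4 controls numbered 11 to 14 are the later group (controls 4 to 7). The design text speaks of biological replicates, and nothing ties a control to a culture, day or colony. The question put to the arrays was which growth, stress, nutrient and metal programmes differ among cultures that lack the channel.

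Budding yeast tunes large gene groups to its medium and growth rate. Fast growth goes with high expression of ribosome assembly factors, while the activators Msn2 and Msn4 raise protective genes when growth slows. Vitamins and metals have their own circuits: thiamine genes are switched on when thiamine is scarce, biotin uptake and synthesis genes when biotin is scarce, the activator Zap1 turns on zinc uptake when zinc is low, Aft1 and Aft2 do so for iron, and Pho4 for phosphate. Bulk RNA cannot tell a gene used more in every cell from a gene used in more of the cells.

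Levels are given as log2 of a probe set's signal in units of its array's mean signal, after 0.03 was added and the 7 arrays were brought to one distribution (quantile normalization). A difference is later minus earlier on that scale, ± its standard error from limma, and "rose" or "fell" is used where the Benjamini-Hochberg adjusted p over all 5498 probe sets of single S. cerevisiae genes was under 0.05. Probe sets outside the S. cerevisiae annotation put the background level at -2.01, which 4893 of the 5498 exceeded on average. The number of arrays limits the precision of every value.

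The 7 arrays were not evenly spaced replicates, although no 2 held identical values. Controls 1 and 2 correlated at r = 0.998 with each other, and controls 5, 6 and 7 at 0.997 to 0.998 among themselves. Control 3 stood apart from its own group, at 0.961 with controls 1 and 2 but 0.974 to 0.975 with controls 5 to 7. Control 4 also stood apart, at 0.980 to 0.985 with controls 5 to 7. Along the first principal component, 68.2% of the variance, controls 1 and 2 lay at -24.9 and -25.7, control 3 at -1.01, controls 5 to 7 at 8.66 to 11.9 and control 4 at 20.5. The p-values therefore measure the spread between these arrays, several of which repeat one another closely.

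Between the groups, 662 of the 5498 probe sets rose (12%) and 916 fell (16.7%), 28.7% in either direction. Changes of at least 2-fold were fewer and mostly upward: 83 rose (1.51%) and 15 fell (0.273%). The groups did not overlap for 904 probe sets that were higher (16.4%) and 1281 that were lower (23.3%). These counts depended heavily on which arrays entered. When controls 1 and 2 were averaged into 1 array and controls 5 to 7 into another, 6 probe sets rose (0.109%) and none fell in limma, with 667 at an unadjusted p under 0.05. The 6 were THI7, BIO3, BIO4, BIO5, ZPS1 and VEL1. Without control 3 the counts were 1389 higher and 1899 lower, and the share of calls that were higher moved from 42.0% to 62.3% when arrays were only centred on their medians and to 25.2% with no normalization.

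**Figure D1:**
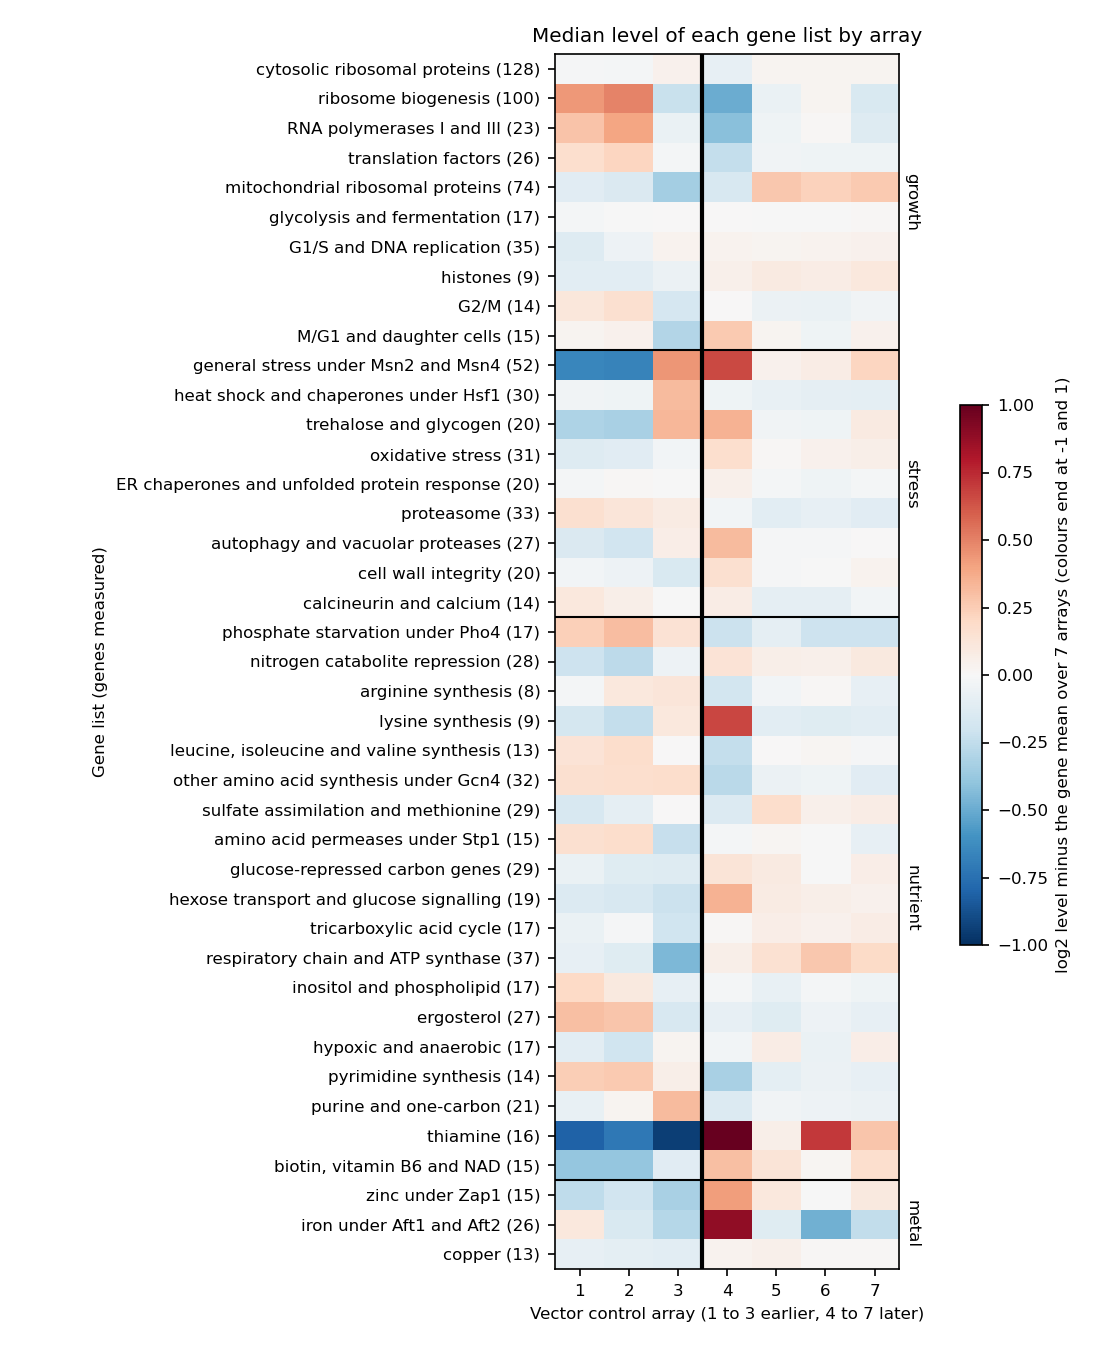
Median log2 level of each of 41 gene lists (rows, number of genes measured in brackets) on each of the 7 vector control arrays (columns), after each gene's mean over the 7 arrays was taken away. The thiamine list runs from -0.94 on control 3 to 1.41 on control 4, the general stress list is at -0.65 and -0.67 on controls 1 and 2 alone, and the iron list stands out on control 4 at 0.89.

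Thiamine genes had the largest median difference of the 46 gene lists. Of 16 thiamine genes measured, 11 rose (background 12%) and none fell, all 16 differences were positive, and the list's median difference was 1.51 against -0.05 over all genes. Those that rose include an uptake gene, synthetic genes and the gene of the enzyme that makes the cofactor.

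THI7, the plasma membrane thiamine transporter, read -0.99, -0.95 and -0.95 on the earlier controls and 3.02, 2.28, 2.68 and 2.32 on controls 4 to 7. The groups were far apart, an 11.6-fold rise (3.53 ± 0.18, adjusted p = 0.00069). THI73, a permease related to vitamin transporters, lay under background on all 3 earlier arrays (-2.29, -2.24 and -2.45) and at 2.56, 0.57, 1.68 and 1.06 on the later ones. With the dim group held at the lowest measurable level, it was at least 11.1-fold higher in the later controls (adjusted p = 0.0035). The related transporter gene THI72 stayed under background in both groups, at -2.77 to -2.30.

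Among the synthetic genes, THI20, whose product phosphorylates the pyrimidine precursor of thiamine, read -0.91, -0.98 and -0.39 and then 2.94, 1.98, 2.46 and 2.14, a rise of 3.14 ± 0.25 (adjusted p = 0.0012). PET18, which is expressed with the thiamine genes, rose by 3.32 ± 0.31, from -1.52, -1.38 and -1.13 to 2.74, 1.31, 2.09 and 1.76. THI6, which joins the pyrimidine and thiazole rings, rose by 1.39 ± 0.32, and THI80, which makes the pyrophosphate cofactor, by 0.49 ± 0.14. In these 4 genes every later array was above every earlier array, and control 4 was the highest. SNZ3 and SNO3, vitamin B6 genes that are expressed with the thiamine genes, rose by 1.98 ± 0.25 and 1.04 ± 0.19, although their probes are shared with near copies. PHO3, a thiamine-repressible acid phosphatase, rose by 1.64 ± 0.18. Of the regulators, THI3 rose by 0.46 ± 0.11. THI2 rose as well, from -2.09, -2.18 and -1.79, above background on 1 of the 3 earlier arrays alone, to 0.28, -0.80, -0.38 and -0.62, so the size of its rise is uncertain.

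THI4, the suicide enzyme that builds the thiazole ring, missed the threshold. It read -1.62, -1.63 and -1.81 on the earlier controls and 3.44, -0.83, 1.20 and 0.10 on the later ones, a difference of 2.67 ± 0.90 (adjusted p = 0.062). The groups did not overlap, but the later arrays were widely spread, from -0.83 on control 5 to 3.44 on control 4. THI21 showed the same order among the later arrays, at 1.06, -0.60, 0.23 and -0.45. Over the list, control 4 was the highest of the 7 arrays for 15 of 16 genes (21.4% of all probe sets), and the list's median was 1.41 on control 4, 0.06 on control 5, 0.71 on control 6 and 0.28 on control 7. Thus the order of the later arrays was 4, 6, 7, 5 for thiamine. Without control 4, 11 of the 16 genes still rose (background 10.6%). Over the fits that left out 1 array 7 to 12 did, where 180 to 1389 of all probe sets rose.

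Biotin uptake and synthesis rose together. All 5 biotin genes measured rose. In their list of 15 genes for biotin, vitamin B6 and NAD, 8 rose and 2 fell (background 12% and 16.7%). BIO5, which carries a biotin precursor into the cell, lay under background on the earlier arrays (-3.16, -3.06 and -2.52) and read 1.67, 2.54, 1.40 and 2.54 on the later ones. It was at least 16.6-fold higher in the later controls (adjusted p = 0.00069). BIO3 and BIO4, which encode the next enzymes of the route, are direct neighbours of BIO5 in the RefSeq annotation. BIO3 read -0.76, -0.88 and -0.43 and then 2.54, 2.80, 2.01 and 2.79, a 9.37-fold rise. BIO4 read -1.55, -1.56 and -1.19 and then 1.87, 1.97, 0.78 and 1.91, an 8.38-fold rise. These 3 neighbours were low on controls 1 to 3 and high on the later arrays, with control 6 the lowest later array. Control 3 was the highest earlier array for BIO3 and BIO4, while the earlier values of BIO5, all under background, give no order.

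BIO2, biotin synthase, rose by 1.79 ± 0.22, from 0.42, 0.18 and 0.97 to 2.04, 2.59, 2.08 and 2.55. VHT1, the biotin importer, rose by 2.44 ± 0.18, from 0.58, 0.51 and -0.05 to 2.85, 2.87, 2.46 and 2.95. No earlier array reached the lowest later array for either gene. Control 6 was the lowest of the later arrays for 11 of the 15 genes of the list (25.2% of all probe sets), while it was the lowest for 1 of the 16 thiamine genes. So the later arrays came in another order for this list than for thiamine.

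In the same list, 3 genes of NAD synthesis rose slightly, BNA2 by 0.87 ± 0.18, BNA5 by 0.73 ± 0.10 and BNA4 by 0.28 ± 0.07. The other NAD genes BNA1, BNA3 and BNA6, the nicotinic acid importer TNA1 and the vitamin B6 importer TPN1 did not pass, with differences of -0.12 to 0.33. The vitamin B6 genes SNZ1 and SNO1 fell, by 0.41 and 0.66 on the log2 scale, opposite to SNZ3 and SNO3. SNO1 was under background in both groups, and its sign turned on the deposited scale.

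**Figure D2:**
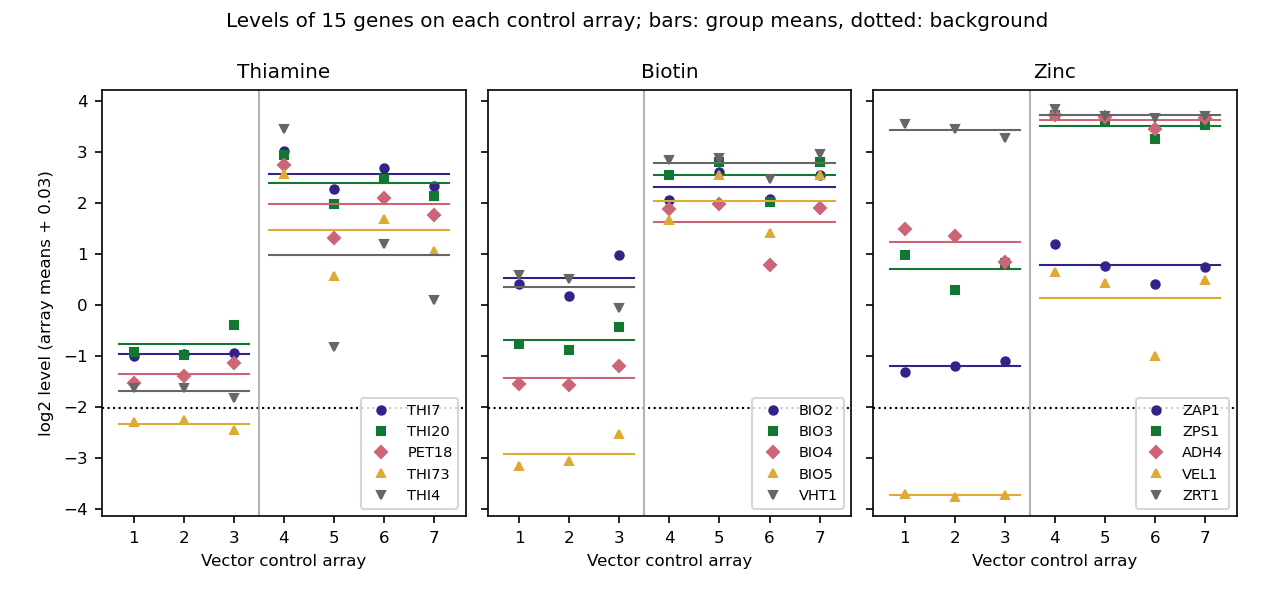
Log2 level (units of the array mean plus 0.03) of 15 thiamine, biotin and zinc genes on each vector control array, with horizontal bars for the group means and a dotted line at the background level of -2.01. Every gene shown except BIO2, VHT1, ZRT1 and the zinc genes ZPS1 and ADH4 lies below 0 on controls 1 to 3, and THI4 spreads from -0.83 to 3.44 over the later arrays.

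Zinc genes rose as well. Of 15 Zap1 targets and zinc transporters, 7 rose and none fell (background 12% and 16.7%), with a median difference of 0.30. ZAP1, the zinc-sensing activator, read -1.31, -1.20 and -1.10 on the earlier controls and 1.19, 0.77, 0.42 and 0.74 on the later ones, a 3.94-fold rise (1.98 ± 0.17, adjusted p = 0.0015). ZPS1, a surface protein made in low zinc, rose 7.02-fold, from 0.98, 0.29 and 0.83 to 3.71, 3.58, 3.24 and 3.51. ADH4, an alcohol dehydrogenase induced in low zinc, rose 5.28-fold, from 1.48, 1.36 and 0.85 to 3.72, 3.67, 3.45 and 3.66. For these 3 genes every later array was above every earlier array, and for ZPS1 and ADH4 the later arrays lay close together.

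VEL1, a Zap1 target of unknown role, was under background on controls 1 to 3 (-3.69, -3.75 and -3.71) and read 0.65, 0.43, -1.0 and 0.50 on the later arrays, at least 4.45-fold higher. YOR387C, its close relative, went from -2.27, -2.86 and -2.10 to 2.37, 1.43, 0.03 and 1.64, at least 10.4-fold higher. In both genes control 6 was clearly the lowest later array. Zinc transporters moved less. ZRT3, which releases zinc from the vacuole, rose by 0.75 ± 0.16. ZRT1, the high-affinity importer, was already bright at 3.55, 3.45 and 3.27 and read 3.83, 3.70, 3.66 and 3.70, a rise of 0.30 ± 0.08. ZRT2, the low-affinity importer, and the vacuolar importers ZRC1 and COT1 did not pass, with differences of 0.16, 0.15 and 0.06. IZH1, a membrane protein gene under Zap1, rose by 0.45 ± 0.14 although its groups overlapped.

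The zinc list was highest on control 4 for 13 of 15 genes (21.4% of all probe sets). Among the later arrays it was lowest on control 6 for 14 of 15 (25.2%). Without control 4, 5 of the 15 rose and 1 fell (background 10.6% and 13.2%). From 4 to 7 rose over the fits that left out 1 array, where 180 to 1389 of all probe sets rose. The gene that fell without control 4 was FET4, a low-affinity iron and zinc importer, which read 1.80, 1.77 and 1.77 and then 2.18, 1.40, 1.14 and 1.42.

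**Figure D3:**
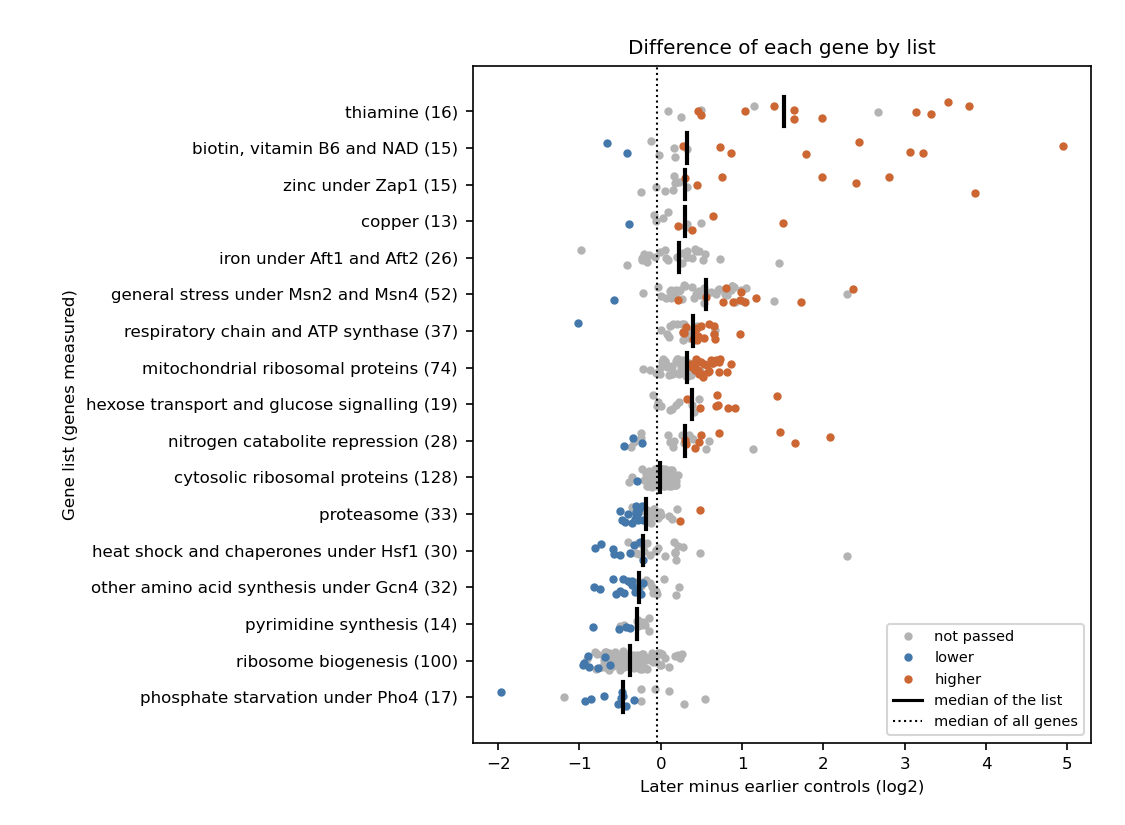
Later minus earlier difference (log2) of each gene in 17 lists (rows, genes measured in brackets), coloured by whether the gene rose, fell or did not pass at an adjusted p of 0.05, with list medians as black bars and the median of all genes, -0.05, as a dotted line. Thiamine, biotin and zinc genes reach differences of 3.79, 4.95 and 3.86, PHO11 of the phosphate list is the lowest point at -1.97, and the cytosolic ribosomal proteins all lie between -0.40 and 0.21.

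Phosphate genes went the other way. Of 17 Pho4 targets, 10 fell (background 16.7%) and none rose, with a median difference of -0.47. PHO11, an acid phosphatase whose probes a near copy shares, read 1.65, 1.88 and 1.37 and then -0.50, -0.19, -0.26 and -0.39, a fall of 3.92-fold (-1.97 ± 0.13, adjusted p = 0.00076). PHO5, the main acid phosphatase, read 0.87, 1.21 and 0.90 and then -0.43, 0.42, 0.41 and 0.16 (-0.85 ± 0.21). PHO84, the high-affinity phosphate importer, read 2.94, 3.07 and 2.56 and then 1.69, 2.53, 2.24 and 2.17 (-0.70 ± 0.21). The groups did not overlap for any of the 3, although control 5 nearly reached control 3 for PHO84.

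The 4 subunit genes of the polyphosphate polymerase complex all fell: VTC3 by 0.93, VTC4 by 0.49, VTC2 by 0.48 and VTC1 by 0.33. VTC1 alone of them turned positive, to 0.05, when arrays were only centred on their medians. GDE1, which breaks down a phospholipid headgroup ester for phosphate, fell by 0.52. PHO89, a sodium-coupled phosphate importer, did not pass and had another profile, at 0.44 and 0.09 on controls 1 and 2 and -1.61 to -1.50 on the other 5 arrays. SPL2, a small regulator of phosphate uptake, read 0.28 to 0.40 on the earlier and 0.17 to 0.48 on the later controls. The number of phosphate genes that fell was 12 without control 3 and 9 without control 4 (background 34.5% and 13.2%). It was 4 at the fewest, without control 1, where 189 of all probe sets fell.

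Among nitrogen genes that preferred sources repress, 9 of 28 rose and 3 fell (background 12% and 16.7%), with a median difference of 0.30. DAL1, 1 of the 9 that rose, was under background in both groups. PUT1, proline oxidase, read -0.46, -0.94 and -0.77 and then 1.66, 1.24, 1.20 and 1.32, a 4.23-fold rise (2.08 ± 0.15, adjusted p = 0.001). OPT2, of the oligopeptide transporter family, rose 3.15-fold, from -0.78, -0.64 and -0.08 to 1.08, 1.29, 1.05 and 1.19. The GATA regulators GAT1, an activator, and DAL80, a repressor, rose by 0.71 ± 0.15 and 1.46 ± 0.38. For DAL80, above background on 1 of the 3 earlier arrays, the levels were -2.29, -2.13 and -0.74 and then 0.20, -0.28, -0.45 and -0.50, so control 3 lay nearer to the later arrays. The ammonium permeases MEP1 and MEP3 rose by 0.31 ± 0.08 and 0.30 ± 0.06. MEP2 (0.59 ± 0.19, adjusted p = 0.057) and the general amino acid permease GAP1 (0.16 ± 0.11) did not pass.

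Glucose sensing and hexose transport genes rose in 8 of 19 cases and fell in none (background 12% and 16.7%), with a median of 0.38. Of the 8, 1 was under background in both groups. MIG2, a glucose-induced repressor, read -0.79, -1.16 and -1.13 and then 1.15, 0.17, 0.16 and 0.12, a 2.68-fold rise. MIG1, its partner, rose by 0.83 ± 0.13, MTH1, a corepressor of hexose transporters, by 0.92 ± 0.16, and SNF3, the sensor of low glucose, by 0.71 ± 0.15. HXT4, a transporter for moderate glucose, rose by 0.69 ± 0.09, from 2.22, 2.08 and 2.41 to 2.87, 2.90, 2.94 and 3.00. The rise thus took in genes of glucose repression as well as transporters. HXT1, HXT2 and HXT3 did not pass, with differences of 0.47, -0.10 and 0.11. HXT2 ranged from 1.26 on control 3 to 2.79 on control 1, wider than the whole span of the later controls (1.97 to 2.21). Of 29 glucose-repressed carbon genes 10 rose and 2 fell (background 12% and 16.7%), but 8 of the 10 were under background in both groups. With only probe sets above background tested 2 rose and 2 fell, where 588 of all those tested rose and 837 fell. With dim values set to the background level 1 rose and 2 fell, where 546 of all probe sets rose and 764 fell. PCK1, which opens gluconeogenesis, rose by 0.81 ± 0.13.

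Many respiratory and mitochondrial translation genes rose by small amounts. Of 37 respiratory chain and ATP synthase genes 16 rose and 1 fell (median 0.40, background 12% and 16.7%). Of 74 mitochondrial ribosomal protein genes 24 rose and none fell (median 0.33, same background). INH1, the ATP synthase inhibitor, read 1.30, 1.20 and 1.21 and then 1.97, 2.28, 2.32 and 2.29, a 1.97-fold rise. The ATP synthase subunit genes ATP7 and ATP14 rose by 0.65 ± 0.07 and 0.67 ± 0.08, and the mitochondrial ribosomal protein gene MRPL36 by 0.73 ± 0.11. The gene that fell was CYC7, the cytochrome c isoform favoured at low oxygen, at 0.19, 0.05 and 0.87 and then -0.77, -0.79, -0.51 and -0.52. AAC3, the hypoxic ADP/ATP carrier, fell with it, by 1.01, and like CYC7 was highest on control 3 (0.51). ROX1, the repressor of hypoxic genes, rose by 0.87 ± 0.12, and TIR2, also of the hypoxic list, by 0.69 ± 0.15. Of the whole hypoxic list of 17 genes, 5 rose and 2 fell (background 12% and 16.7%), with a median difference of 0.006.

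Control 3 stood out in both mitochondrial lists. It was the lowest of the 7 arrays for 27 of 37 respiratory genes and 47 of 74 mitochondrial ribosomal protein genes (17.5% of all probe sets), with list medians of -0.45 and -0.34. With no normalization it was the lowest for 29 and 57 of them (25.9% of all probe sets). Under median centring the numbers were 14 and 39 (15.1%), so the respiratory count depends on the scaling. CYC1, the main cytochrome c gene, read 0.62 on control 3 against 2.73 and 2.68 on controls 1 and 2 and 2.91 to 3.06 on controls 5 to 7. NDE1, a mitochondrial NADH dehydrogenase, read 0.73 on control 3 against 2.32 to 3.04 on the other 6 arrays. Without control 3 the numbers that rose were 19 of 37 and 26 of 74, where the background share was 25.3% in place of 12%. Over the fits that left out 1 array, 9 to 19 respiratory chain and ATP synthase genes and 7 to 44 mitochondrial ribosomal proteins rose. In these fits 180 to 1389 of all 5498 probe sets rose. The fewest mitochondrial ribosomal proteins rose without control 2, where 180 probe sets did. The most rose without control 4, where 584 (10.6%) did. With no normalization 15 respiratory and 8 mitochondrial ribosomal protein genes rose, where 354 of the 5498 probe sets did. The mitochondrial ribosomal protein list on control 4 (-0.16) was as low as on controls 1 and 2 (-0.11 and -0.14), and only controls 5 to 7 were high (0.23 to 0.27).

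Amino acid and pyrimidine synthesis genes fell modestly. Of 32 Gcn4 targets outside the arginine, lysine and branched-chain routes, 16 fell and none rose (median -0.27, background 16.7% and 12%). SER2, for serine, read 0.70, 0.76 and 0.71 and then -0.26, 0.08, 0.10 and 0.03 (-0.74 ± 0.10). HIS7 and TRP2, for histidine and tryptophan, fell by 0.55 and 0.59. In the 14-gene pyrimidine list all differences were negative and 4 genes fell (background 16.7%). FCY1, cytosine deaminase, read 2.24, 2.21 and 2.18 and then 0.95, 1.56, 1.48 and 1.49. The other routes gave few calls (background 12% higher and 16.7% lower). In these, 1 of 8 arginine genes rose and 2 fell, and 1 of 13 branched-chain genes rose and 1 fell. None of 9 lysine genes passed in limma (1 at an unadjusted p under 0.05). Under median centring 4 of the 32 Gcn4 targets fell (background 8.64%), so the count rests on the scaling.

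Many proteasome genes and some heat shock genes fell as well. Of 33 proteasome genes 15 fell and 2 rose (median -0.19, background 16.7% and 12%). RPT2, a regulatory ATPase, read 1.25, 1.21 and 1.18 and then 0.74, 0.69, 0.79 and 0.75, and PRE5, a core subunit, fell by 0.44. For both genes the arrays of a group lay close together and the groups lay apart. Of 30 Hsf1 targets 9 fell and none rose (median -0.21, background 16.7% and 12%). STI1, an Hsp90 cochaperone, read 2.45, 2.36 and 2.37 and then 1.82, 1.84, 1.82 and 1.74 (-0.59 ± 0.06), and YDJ1, a J protein, fell by 0.73. HSP104, the disaggregase, read 2.33, 2.27 and 2.72 and then 2.12, 1.75, 1.76 and 1.81 (-0.58 ± 0.14). These small falls depend on the scaling: with median centring, where the background was 8.64%, 2 proteasome and 1 heat shock gene fell, and the heat shock median became 0.12. Control 3 was the highest of the 7 arrays for 19 of the 30 heat shock genes (20.2% of all probe sets). Without it, 6 of the 30 rose and 12 fell, near the shares of all probe sets in that fit (25.3% and 34.5%). SSA4, an inducible Hsp70, read 1.41 on control 3 against -0.79 to 0.23 on the others.

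The largest falls also took in genes of mixed function. YDL241W, of unknown role, read 0.74, 0.53 and 0.71 and then -2.54, -0.92, -1.20 and -1.25 (-2.13 ± 0.36, adjusted p = 0.0093). ATO3, a putative ammonium exporter counted above among the glucose-repressed genes, fell by 1.58, from 1.74, 1.67 and 1.29 to -0.43, 0.33, -0.07 and 0.12. YCR102C fell by 1.20 with little spread, from -0.45, -0.28 and -0.17 to -1.54, -1.46, -1.47 and -1.55. By contrast, GPD2, for glycerol synthesis, read 0.74 and 0.69 on controls 1 and 2 but -0.58 on control 3 and -1.39 to -1.01 on the later arrays. BUR2, a cyclin of transcription, ATF2, an acetate ester synthase, CAB3, for coenzyme A, DUS3, a tRNA modification enzyme, and YAP7, a transcription factor, had the same shape, with BUR2 and YAP7 under background on average on the later arrays. In each of these 5 genes control 3 lay closer to the later arrays than to controls 1 and 2. YOL014W, of unknown role, fell by 1.36.

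URA3, the marker that plasmids of the pRS426 series carry for selection without uracil, read 3.88, 3.81 and 3.87 and then 2.78, 3.07, 3.06 and 3.01. It fell 1.83-fold (-0.87 ± 0.09, adjusted p = 0.0024), with the groups well apart. The pyrimidine genes above fell on the same arrays. Plasmid copy number was not measured.

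Cell type markers were those of α cells. On average over the 7 arrays all 4 α-specific genes lay above background, and 1 of 6 a-specific genes and none of 12 meiosis genes did. The meiosis genes ZIP1 and NDT80 were slightly above it on the earlier controls. MF(ALPHA)1, the main α-factor gene, read 3.13 to 3.19 on the earlier and 3.37 to 3.41 on the later controls. The α-agglutinin gene SAG1 was less even, at 2.58, 2.61 and 1.79 and then 1.06, 1.46, 1.41 and 1.43 (-0.99 ± 0.21). MF(ALPHA)2 read 3.36, 3.83, 3.16, 1.59, 2.86, 2.72 and 2.74 on controls 1 to 7.

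A second pattern cut across the title numbers: controls 1 and 2 against the other 5 arrays. Of 52 general stress genes under Msn2 and Msn4, 48 were lower on both controls 1 and 2 than on each of the other 5 arrays (25.7% of all probe sets). The list's median was -0.65, -0.67, 0.44, 0.66, 0.05, 0.07 and 0.21 on controls 1 to 7. HSP12, a small stress protein of membranes, read 0.18, 0.08, 2.06, 3.55, 3.01, 2.86 and 3.12. HSP26, a small chaperone, read -1.64, -1.54, 1.98, 3.06, 1.36, 1.42 and 1.72. Both were low only on controls 1 and 2, and control 4 was the highest array for each.

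Of 20 trehalose and glycogen genes, 15 were lower on both controls 1 and 2 than on the other 5 arrays (25.7% of all probe sets). Only 1 was higher (34.0%). GPH1, glycogen phosphorylase, read -0.23 and -0.06 on controls 1 and 2 and 1.25 to 2.35 on the other 5, highest on control 3. IGD1, an inhibitor of glycogen debranching, read -2.05 and -2.04 and then 0.55 to 1.04. The exception was PGM1, a phosphoglucomutase, at 1.33 and 1.37, then 1.11 on control 3 and 0.59 to 0.69 on the later arrays. CTT1, the cytosolic catalase, read -1.41 and -1.42 and then -0.24 to 0.64. With control 3 in the earlier group, later against earlier gave 11 general stress genes higher and 1 lower (background 12% and 16.7%). HSP12 rose (2.36 ± 0.47, adjusted p = 0.015) while HSP26 did not pass (2.29 ± 0.92, adjusted p = 0.098). Without control 3, 41 rose and 1 fell (background 25.3% and 34.5%). Against control 3 alone, the list's median difference was -0.21.

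Ribosome assembly genes ran the opposite way. Of 100 ribosome biogenesis genes, 86 were higher on both controls 1 and 2 than on the other 5 arrays (34.0% of all probe sets), and control 4 was the lowest of the 7 for 82 (26.9%). The list's median was 0.43, 0.50, -0.22, -0.49, -0.07, 0.03 and -0.15. DBP8, an RNA helicase of ribosome assembly, read -0.47, -0.32, -1.05, -2.06, -1.43, -1.23 and -1.56. UTP9, a factor of early ribosome assembly, read 0.67, 0.78, -0.13, -0.93, -0.40, -0.29 and -0.41. Both genes were highest on controls 1 and 2 and lowest on control 4, the reverse of HSP12. RNA polymerase I and III genes had 20 of 23 members highest on controls 1 and 2 and 19 lowest on control 4.

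The later-against-earlier test called 7 of the 100 ribosome biogenesis genes lower, a smaller share than the 16.7% of all probe sets, and none higher. Without control 3 it called 76 lower (background 34.5%). Under no normalization and median centring, 43 and 50 of the 52 stress genes were lowest on controls 1 and 2 (16.1% and 39.7% of all probe sets). Of the ribosome biogenesis genes 92 and 74 of 100 were highest there (52.7% and 24.2%). Cytosolic ribosomal protein genes depended on the scaling. In the later-against-earlier test 1 of 128 fell and none rose, and the median was -0.005, but 0.26 with no normalization and 0.50 under median centring. They were lower on both controls 1 and 2 than on the other 5 arrays in 32 of 128 cases, but in 111 with no normalization and 123 under median centring. NSR1, a nucleolar protein, read 2.79, 2.87, 2.16, 2.23, 2.62, 2.64 and 2.59. The array signals of controls 1 and 2 also had a narrower range, with a 99th percentile of 8.67 to 9.03 array means against 11.4 to 11.8 on the other 5, and its part in these orders was tested only by the scalings given.

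**Figure D4:**
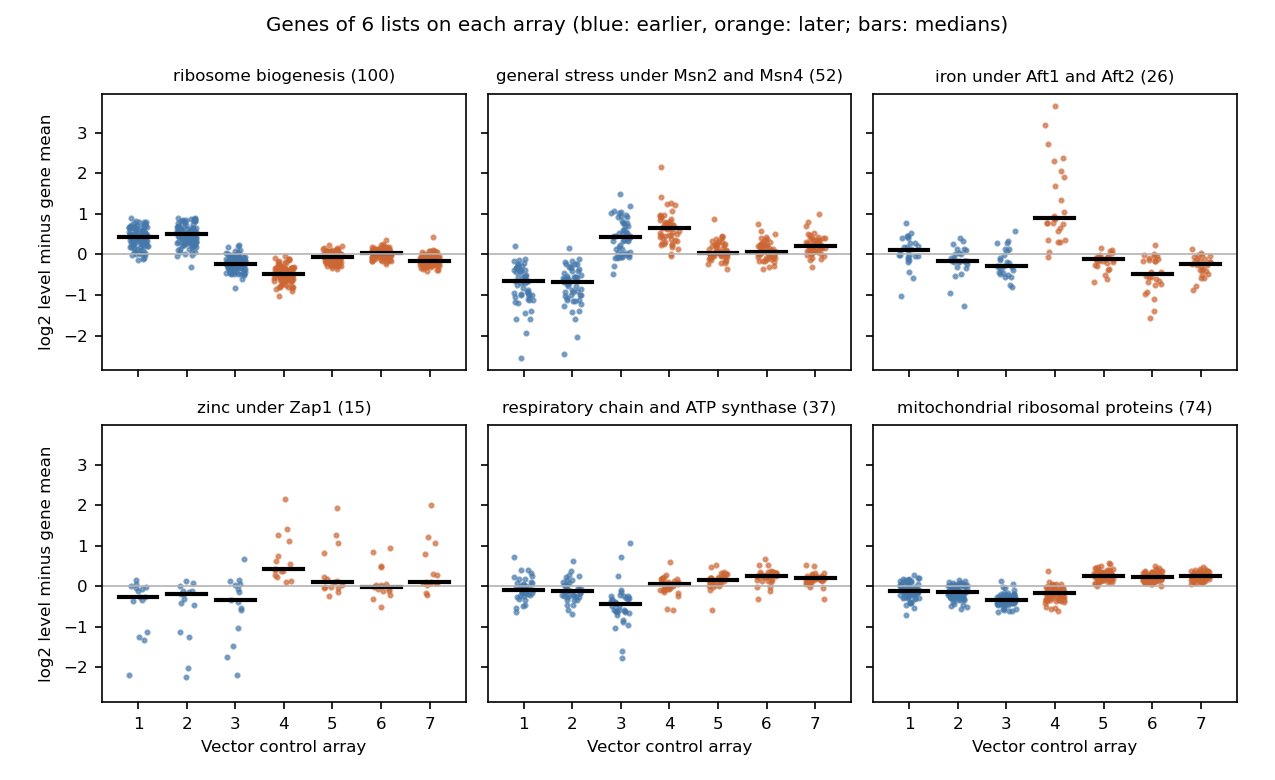
Log2 level minus the gene's mean over the 7 arrays for every measured gene of 6 lists (panels, number of genes in brackets) on each vector control array, blue for earlier and orange for later controls, with a bar at the median. Ribosome biogenesis and general stress divide controls 1 and 2 from the rest in opposite directions, iron genes are high on control 4 alone, and control 3 is the lowest array for the respiratory list at -0.45.

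Another pattern belonged to control 4. Of 26 iron genes under Aft1 and Aft2, 23 were highest on control 4 (21.4% of all probe sets), with a median excess of 1.21 over the mean of controls 5 to 7. FIT2, a cell wall mannoprotein that helps hold iron-carrying siderophores, read -1.09, -1.33, -0.24, 3.60, -0.14, -0.80 and -0.41. FIT3, its relative, read 0.54 to 0.82 on 6 arrays and 3.39 on control 4. ARN2, a siderophore transporter, read -1.38 to -0.47 on 6 arrays and 2.73 on control 4. No other array came near the level of control 4 for any of the 3.

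Other iron genes were high on control 4 as well. TIS11, which removes mRNAs of iron-using proteins, read 1.94 on control 4 and -2.17 to -0.66 elsewhere. FRE2, a surface ferric reductase, read 0.16 and -2.47 to -1.95. The high-affinity pair FET3 and FTR1 stood out less there, at 3.11 and 2.34, against 1.47 to 2.68 and 0.69 to 1.48 on the other arrays. In limma no iron gene passed later against earlier, 1 had an unadjusted p under 0.05, and the list's median difference was 0.23. Without control 4, 4 of the 26 fell (background 13.2%) and none rose (10.6%). Without control 3, 2 rose and 1 fell, smaller shares than the 25.3% and 34.5% of all probe sets. In the opposite direction on control 4, CYC1, a haem protein gene, read 1.82 against 2.91 to 3.06 on controls 5 to 7. CYC1 was lower still on control 3 (0.62), and control 4 was the lowest array for none of the 37 respiratory genes. GRX4, a glutaredoxin that helps sense iron, read -0.18 on control 4 against 0.99 to 1.12 on controls 5 to 7. Under no normalization and median centring 22 and 23 of the 26 iron genes were highest on control 4.

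Lysine genes were also high on control 4, with 7 of 9 highest there (21.4% of all probe sets) and a median excess of 0.86. LYS9 and LYS20 read 3.55 and 3.44 on control 4 and 2.40 to 2.52 and 2.48 to 2.65 on controls 5 to 7. The arginine and branched-chain lists did not share this. Of the 32 other Gcn4 targets, 24 were lowest on control 4 (26.9% of all probe sets). Control 4 was also the highest array for 35 of the 52 general stress genes, but for 4 of the 30 heat shock genes.

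Copper genes were split. CTR1, the high-affinity copper importer, read 0.40, 0.37 and -0.97 and then 1.77, 1.38, 1.29 and 1.30, a rise of 1.50 ± 0.34. FRE1, a surface reductase for copper and iron, had its lowest value on control 3 too, at -1.33, and did not pass. COX17, a copper chaperone, rose by 0.65 ± 0.16, with control 4 (0.52) below controls 5 to 7 (1.14 to 1.17). CCS1, the chaperone that loads superoxide dismutase, fell by 0.39. CUP1-1, the metallothionein, whose probes are shared, stayed at 3.68 to 3.88. In all, 4 of 13 copper genes rose and 1 fell (background 12% and 16.7%). Of the 4, 1 was under background in both groups. With dim values set to the background level 3 rose and none fell, where 546 of all probe sets rose and 764 fell. With no normalization 1 rose and 1 fell, where 354 of all probe sets rose and 1053 fell.

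Of 17 glycolytic genes 3 rose and 1 fell (background 12% and 16.7%). Their median of 0.01 became 0.38 with no normalization and 0.62 under median centring. They were lower on both controls 1 and 2 than on the other 5 arrays for 4 of 17 genes, but for 16 and 17 of 17 under those scalings (16.1% and 39.7% of all probe sets). PDC5, a minor pyruvate decarboxylase, had the largest difference of the list, rising by 1.81 ± 0.37. It is known as a gene induced in low thiamine, and it read 1.04, 1.04 and 1.15 and then 3.68, 2.18, 3.36 and 2.33, the order of the later arrays seen in the thiamine list. Among 35 G1/S genes 1 fell and 8 rose (background 16.7% and 12%). Those that rose include PCL2, a G1 cyclin that lay above background on 1 of the 3 earlier arrays and on all later ones. Of the 15 genes of M/G1 and daughter cells, 12 were lowest on control 3 (17.5% of all probe sets). On control 4, 11 were highest (21.4%). With no normalization and median centring, 15 and 7 were lowest on control 3 (25.9% and 15.1%). Those highest on control 4 were then 10 and 13 (17.6% and 23.1%).

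Of the remaining genes fixed for naming, most did not pass. KAR2, the ER chaperone, read 3.10 to 3.21 on the earlier and 3.06 to 3.20 on the later controls, and MET17, of sulfur metabolism, 3.47 to 3.55 and 3.56 to 3.65. INO1, inositol synthesis, was near -0.29 to -0.51 on controls 1 and 2, -1.51 on control 3 and -0.44 to -0.10 on the later arrays. ADH2, the glucose-repressed alcohol dehydrogenase, stayed at -1.71 to -0.84 on all 7. HSP82, the inducible Hsp90, was highest on control 3 at 2.27 against 1.35 to 1.73 elsewhere. ULI1, a gene of the unfolded protein response, rose slightly, by 0.38 ± 0.07, from -2.04 ± 0.06 (SD, n = 3 arrays) to -1.66 ± 0.09 (SD, n = 4 arrays), with 1 of the 3 earlier arrays above background. HXT7, a high-affinity hexose transporter with shared probes, rose by 0.69 ± 0.18. RPL3, a ribosomal protein, read 3.62 on each earlier array and 3.41 to 3.51 on the later ones and did not pass. MKK2, a kinase of the cell wall pathway, stood out on 1 array, at 1.85 on control 2 and -1.37 to -1.02 on the other 6.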

How the data were processed

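Total RNA of vector control cultures was measured on Affymetrix arrays (7 arrays, 1 channel). The authors deposited 1 score per probe set and array, and from the values these are z scores, with mean 0 and SD 1 within each array over 10715 probe sets. The summarisation and software behind them are not given in the sources used here, and no scan files were used. Each score was turned into units of its array's mean signal with the lowest score as 0, offset by 0.03 and put on the log2 scale, and quantile normalization was run over the 7 arrays and all probe sets. The zero point is thus assumed, which affects dim genes most. limma 3.58.1 in R 4.3.3 (lmFit, eBayes, two-sided, 5 residual degrees of freedom) compared 4 later with 3 earlier controls over 5498 probe sets naming 1 of 5449 S. cerevisiae genes, with Benjamini-Hochberg adjustment. Names came from the platform annotation. The 1746 probe sets with a name there but outside the S. cerevisiae genes set background (95th percentile), and 3470 had no name. The fit was checked on simulated data with independent arrays and 1 spread for all genes, so the check does not cover arrays that repeat one another. Exact permutation of 4 against 3 arrays has 35 splits and cannot go below a two-sided p of 0.0571.

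Genes named were the 12 largest rises and falls whose groups did not overlap and that lay above background, up to 3 called genes per list with the smallest p, the 8 genes in each direction for control 3 against controls 1 and 2 and for control 4 against controls 5 to 7, and a fixed set of genes. No 2 arrays held identical values. Alternatives changed the normalization, pseudocount, filter, variance model and arrays used. Further members of the thiamine, biotin, zinc, phosphate, nitrogen, glucose, iron, lysine, copper, pyrimidine, glycolysis, hypoxic and glycogen lists, with FET4, were chosen after their values were seen. The comparison and the 46 lists (1132 genes) were chosen with earlier results of these data known, so no list carries a test of its own.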

Additional observations from a re-analysis of the deposited data

Results flagged for a closer look

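Among the 4 later controls, 231 list medians and named genes were examined for 1 array far from the other 3, taking the gap to the nearest array over the whole range of the 4. This ratio passed Dixon's 95% critical value for 4 arrays, which chance alone passes in about 1 of 20 groups, for 34 results, and control 4 was the array in 27 of them. The results share the same 4 arrays and are not independent.

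Control 4 was the lowest array for the list medians of cytosolic ribosomal proteins (ratio 0.966), translation factors (0.952), mitochondrial ribosomal proteins (0.923), branched-chain amino acid synthesis (0.881), α-cell genes (0.877) and pyrimidine synthesis (0.855). It was the highest for lysine synthesis (0.982), autophagy and vacuolar proteases (0.955) and hexose transport and glucose signalling (0.877). The phosphate list was highest on control 5 (0.917).

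Genes for which control 4 was lowest were COX17 (0.958), INH1 (0.907), NSR1 (0.882), SAG1 (0.879), RPS23B (0.873), FCY1 (0.872), URA1 (0.861), ORT1 (0.844) and RPL3 (0.839). Genes for which it was highest were MIG2 (0.944), CCW14 (0.932), FUS2 (0.915), SSA4 (0.888), AHP1 (0.874), KAR2 (0.874), FIT2 (0.852), HSP104 (0.838) and PCL9 (0.836). Control 6 was lowest for BIO4 (0.914) and VEL1 (0.866) and highest for MDH1 (0.918). Control 7 was lowest for CCH1 (0.901) and STI1 (0.845), and control 5 was highest for PCL2 (0.882).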

How the results depend on the processing

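No paired analysis was possible because the later and earlier controls share no replicate numbers. The alternative with control 3 as the only earlier array was chosen after seeing the data, and it assumes that this lone array varies like the later ones. Of 1578 probe sets called, 662 higher and 916 lower, the count became 4127 (1791 and 2336) with array weights, 4007 (1740 and 2267) for controls 1 and 2 against controls 5 to 7, 484 (216 and 268) for control 3 against the later arrays, 830 (218 and 612) on the deposited z scores, 6 (6 and 0) with near-identical arrays averaged and 2 (2 and 0; THI7 and ADH4; 903 at an unadjusted p under 0.05) with near-identical arrays as a random block (correlation 0.903). Leaving out 1 array at a time gave 362 to 3288 calls, 180 to 1389 higher and 182 to 1899 lower, fewest without control 2 and most without control 3. Calls were 354 higher with no normalization and 475 lower with median centring. All 1578 kept their direction in each fit that left out an array, and 1102 were called in the same direction with no normalization and 1107 with median centring. The median difference of all probe sets was -0.044, 0.062 with median centring and -0.185 with no normalization, and calls were 42.0%, 62.3% and 25.2% higher. Over 166 called named genes and all alternatives, 2985 comparisons kept the call, 973 kept the direction alone and 10 turned. The 2 filters on dim or shared probe sets, the background floor, pseudocounts of 0.01 and 0.1 and the 2 eBayes settings gave 1310 to 1572 calls. Signal over background limits dim genes, and the arrays in a group limit the rest; the cause of each change below was not tested.

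Signs turned as follows. With median centring the differences became 0.206 for RPS23B, 0.265 for PFK1, 0.0672 for ERG4, 0.0898 for ADE3, 0.232 for FET3, 0.503 for CUP1-1, 0.228 for HXT2, 0.412 for RPL3, 0.288 for NSR1, 0.389 for KAR2 and 0.0459 for VTC1. The list medians became 0.0592 over all genes, 0.0784 for translation factors, 0.118 for heat shock, 0.0799 for arginine, 0.251 for branched-chain amino acids, 0.0956 for ergosterol and 0.119 for meiosis. With no normalization they became 0.018 for PFK1, 0.256 for CUP1-1, 0.164 for RPL3, 0.0407 for NSR1 and 0.141 for KAR2, and the medians -0.116 for G1/S, 0.00406 for branched-chain amino acids and -0.0417 for glucose-repressed genes. On the deposited z scores they became 0.0104 for SPS4, 0.0125 for NDT80, 0.349 for CUP1-1, 0.00892 for SNO1 and 0.00859 for PHM6, and the medians -0.00386 for G1/S, -0.00442 for the tricarboxylic acid cycle and 0.0489 for meiosis. With control 3 as the only earlier array they became -0.0934 for HSP26, -0.415 for CTT1, 0.4 for FET3, -0.107 for GAP1, 0.83 for HXT2, 0.359 for NSR1 and 0.004 for KAR2, and the medians 0.0659 for ribosome biogenesis, -0.00772 for G1/S, -0.214 for general stress and 0.0326 for ergosterol. SSA4 became 0.270 and ADH2 0.192 with array weights, and 0.276 and 0.193 for controls 1 and 2 against controls 5 to 7. With near-identical arrays averaged, and then as a random block, FET3 became 0.354 and 0.325, HXT2 0.0928 and 0.0781 and the meiosis median 0.0373 and 0.0285. Cyclic loess gave 0.0139 for CUP1-1. When 1 array was left out, values ran from -0.643 to 0.459 for SSA4, -0.193 to 0.0961 for ADH2, -0.381 to 0.167 for FET3, -0.564 to 0.203 for HXT2, -0.308 to 0.0448 for NSR1 and -0.228 to 0.0255 for the meiosis median.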
